A study of Mus musculus with 9 samples.

Results

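The 9 mouse genes for the prostanoid receptors (Ptger1, Ptger2, Ptger3, Ptger4, Ptgfr, Ptgir, Tbxa2r, Ptgdr and Ptgdr2) were examined for the histone marks H3K27ac and H3K4me1 in oviductal muscle cells. They were taken by name, as the G protein-coupled receptors for prostaglandins and thromboxane, and were 9 of the 21853 protein-coding genes in GENCODE on the mm10 (GRCm38) build. Every peak that overlapped the body of a member or the 50 kb on either side of it was kept. A peak was a promoter peak when it lay within 1 kb of a start of a coding transcript, intragenic when it lay elsewhere in the gene body, and flanking otherwise.

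Primary oviductal muscle cells came from WT mice of 8 to 12 weeks of age on day 2 of pregnancy and were assayed by chromatin immunocleavage sequencing (ChIC-Seq). In this assay an antibody carries MNase fused to protein A to its mark, and the fragments cut loose are sequenced. There were 3 libraries with an antibody to H3K27ac, 3 with an antibody to H3K4me1 and 3 with IgG, each from 50000 formaldehyde-fixed cells. All groups shared the genotype, the day of pregnancy and the preparation, an enzymatic digest of whole oviduct that was filtered and held in a dish for some hours without sorting. No sample of another day, genotype or tissue was analysed here, so the values describe a single state.

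Prostanoids are made from arachidonic acid by way of the cyclooxygenases and act locally on receptors at the cell surface. In smooth muscle, receptors that couple to Gq or Gi (Ptger1, Ptger3, Ptgfr and Tbxa2r) generally favor contraction, and those that couple to Gs and raise cyclic AMP (Ptger2, Ptger4, Ptgir and Ptgdr) favor relaxation. The oviduct moves the embryo toward the uterus by muscle contraction and the beating of cilia. H3K4me1 is found at enhancers and on the sides of promoters, and H3K27ac at active enhancers and promoters.

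The values were the authors' peaks, in 1 list for each H3K27ac and H3K4me1 library and 1 pooled list per mark. The replicate lists held 93684 to 152889 peaks, called from 40551842 to 78891920 fragments against 3110985 to 3713369 IgG fragments. IgG had no list of its own here and enters only through the local background of each peak. Markers of smooth muscle had both marks at the promoter in at least 2 of 3 replicates for 5 of 10 genes, beside 39.1% of all protein-coding genes. Acta2, Des and Smtn were among them and Myh11 and Actg2 were not. The same held for 10 of 10 stromal and mesenchymal markers, 0 of 8 epithelial, 0 of 6 blood, 1 of 5 endothelial and 0 of 6 liver and neuron markers. The part of stromal cells in the receptor marks was not tested. In such bulk libraries, a mark held by few cells and a weaker mark in many cells cannot be told apart.

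Of the 9 receptor genes, 5 had promoter peaks of both marks in at least 2 of 3 replicates. They were Ptger1, Ptger2, Ptger4, Ptgfr and Tbxa2r. H3K27ac reached that level at 5 members and at 53.9% of all protein-coding genes, H3K4me1 at 6 members and at 43.7% of all genes, and both marks at 5 members and 39.1% of all genes. Among the receptors that favor contraction 3 of 4 had both marks, and among those that favor relaxation 2 of 4. Ptger1 and Ptger2 had a promoter peak in all 6 replicate lists, as did 24.3% of genes, and Ptger3 and Ptgdr lacked one in all 6, as did 32.8%.

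By mark, H3K27ac was at the promoter in all 3 replicates of 3 members (Ptger1, Ptger2 and Ptger4) and 45.9% of genes, and in 0 replicates of 3 members (Ptger3, Ptgir and Ptgdr) and 37.5% of genes. H3K4me1 was there in all 3 replicates of 3 members (Ptger1, Ptger2 and Ptgir) and 27.9% of genes, and in 0 replicates of 2 members (Ptger3 and Ptgdr) and 42.7% of genes. In the pooled lists H3K27ac was at the promoter of 6 members and 56.2% of genes, and H3K4me1 at that of 7 members and 56.3% of genes. Some peak in the window was the rule, found in all 3 H3K27ac replicates at 8 members and 81.6% of genes, and in all 3 H3K4me1 replicates at 9 members and 79.9% of genes.

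These counts depended on the strictness of the call. When peaks had to reach 1.3 in −log10 p-value, the count with both marks was 1 (Ptger1), and with a promoter of 250 bp on either side of the start it was 2 (Ptger1 and Ptger2). When a library was left out, both remaining lists of its mark had to hold a peak. The count with both marks was then 3 without H3K27ac replicate 2, without H3K27ac replicate 3 or without H3K4me1 replicate 3, and 2 without H3K4me1 replicate 2. The count with H3K27ac was 3 without H3K27ac replicate 2 or replicate 3, and the count with H3K4me1 was 3 without H3K4me1 replicate 2. The shares of all genes under these settings were not taken, so the drops cannot be called particular to the receptors.

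**Figure D1:**
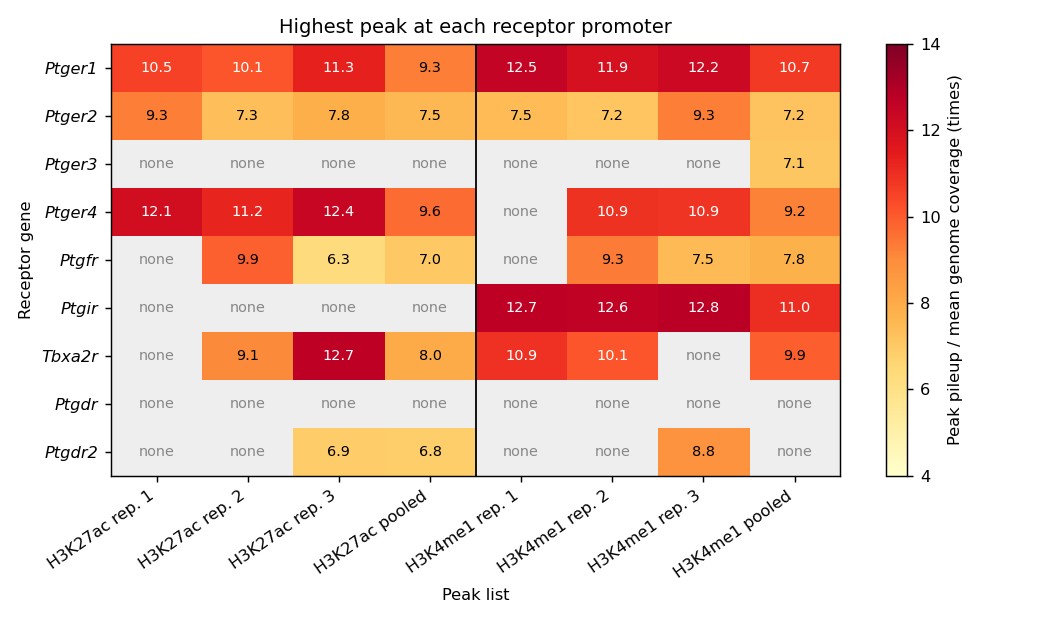
Height of the highest promoter peak of each receptor gene (rows) in each of the 8 peak lists (columns), as the mean pileup of the peak over the mean genome coverage of that call; "none" means no promoter peak. Ptger1 and Ptger2 are filled in every column, Ptgir only in the H3K4me1 columns, and Ptgdr in no column.

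Ptger1 encodes EP1, a receptor for prostaglandin E2 that raises intracellular calcium. It lies at chr8:83666678-83672753 on the plus strand. Its promoter peaks stood at 10.5, 10.1 and 11.3 times the mean genome coverage of the call in H3K27ac replicates 1, 2 and 3, and 12.5, 11.9 and 12.2 times in those of H3K4me1. Peaks of all 6 lists lay across the start itself. The H3K4me1 peaks were the wider, at 1855 to 2859 bp against 521 to 1440 bp, and these ranges did not overlap. Widths were not compared over all genes, so this cannot be called particular to Ptger1. H3K4me1 replicates 2 and 3 had 78891920 and 64063996 fragments, against at most 42040809 for H3K27ac, and the part of depth was not tested. Of the 2001 bp of promoter, 1729 bp were covered by H3K4me1 and 917 bp by H3K27ac in at least 2 of 3 replicates, and all 917 bp held both. The local background of a peak can be worked out from its pileup and fold enrichment. At Ptger1 it was 1.84 to 2.23 times its lowest possible value, and its part in the height of these peaks was not tested.

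Ptger2 encodes EP2, a Gs-coupled receptor for prostaglandin E2, and lies at chr14:44988195-45003820 on the plus strand. In coverage its promoter peaks were lower than those of Ptger1, at 9.31, 7.33 and 7.85 times the mean for H3K27ac and 7.47, 7.15 and 9.29 times for H3K4me1. The 2 ranges overlapped. The local background here was 1.02 to 1.28 times its lowest value, below the range at Ptger1. By fold enrichment over that background the 2 genes overlapped for H3K27ac, at 1.74 to 2.07 against 1.65 to 1.93 at Ptger1. They also overlapped for H3K4me1, at 1.73 to 1.99 against 1.86 to 1.94 at Ptger1. H3K4me1 covered all 2001 bp of promoter in at least 2 of 3 replicates, and H3K27ac covered 1128 bp. In H3K27ac replicate 1 the peak began 656 bp downstream of the start, whereas in replicates 2 and 3 it lay over the start. In the gene body the marks covered overlapping shares, with 22.7%, 24.4% and 18.5% under H3K27ac peaks and 22.5%, 21.2% and 27.1% under H3K4me1 peaks.

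The promoter sequence of Ptger2 is shown because the gene had both marks in every list with few CpG dinucleotides. The 250 bases before the RefSeq start are chr14:44987861-44988110 (GRCm38.p6, plus strand), with each CpG in capitals, and they hold 3.
Ptger2: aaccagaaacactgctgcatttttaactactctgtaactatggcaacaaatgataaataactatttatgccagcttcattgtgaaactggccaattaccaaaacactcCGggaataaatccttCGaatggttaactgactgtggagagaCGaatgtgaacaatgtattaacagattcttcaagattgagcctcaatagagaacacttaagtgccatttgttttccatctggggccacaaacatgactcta

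Ptger4 encodes EP4, the other Gs-coupled receptor for prostaglandin E2, and lies at chr15:5206661-5244187 on the minus strand. Its promoter had the broadest H3K27ac of the 9 genes. Sequence covered in at least 2 of 3 H3K27ac replicates ran on for 7764 bp into the gene, beginning 877 bp downstream of the start, and the pooled peak reached from -899 to 8701 bp relative to the start. That peak, of 9601 bp, was longer than 99.1% of the peaks in its list. The next longest such stretch of H3K27ac at a receptor promoter was 1485 bp, at Ptger2. The promoter peaks stood at 12.1, 11.2 and 12.4 times the mean coverage.

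H3K4me1 at Ptger4 lay upstream of the start and again further into the gene, within the H3K27ac stretch, where its first peaks began 3220, 5436 and 4473 bp downstream in replicates 1, 2 and 3. Replicate 1 had no promoter peak of H3K4me1. In replicates 2 and 3 the peaks ran from -1293 to -164 bp and from -1786 to -408 bp, at 10.9 times the mean coverage in both. The start was thus covered by 2 of 3 H3K27ac lists and 0 of 3 H3K4me1 lists, and the marks shared 118 bp of the promoter in at least 2 of 3 replicates. Across the gene body, H3K27ac peaks covered 20.5%, 27.9% and 25.0% and H3K4me1 peaks 17.6%, 12.6% and 17.2%. Every H3K27ac value exceeded every H3K4me1 value, as it did for 11.2% of genes.

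The Ptger4 promoter is shown as a CpG-rich counterpart to that of Ptger2. Its 250 bases before the RefSeq start are chr15:5244188-5244437 (GRCm38.p6, minus strand), with the 19 CpG in capitals.
Ptger4: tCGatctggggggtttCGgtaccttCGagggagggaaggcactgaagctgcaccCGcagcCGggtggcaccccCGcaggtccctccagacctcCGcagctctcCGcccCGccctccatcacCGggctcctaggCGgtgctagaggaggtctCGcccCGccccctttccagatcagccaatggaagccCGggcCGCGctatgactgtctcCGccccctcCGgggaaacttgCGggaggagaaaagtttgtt

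**Figure D2:**
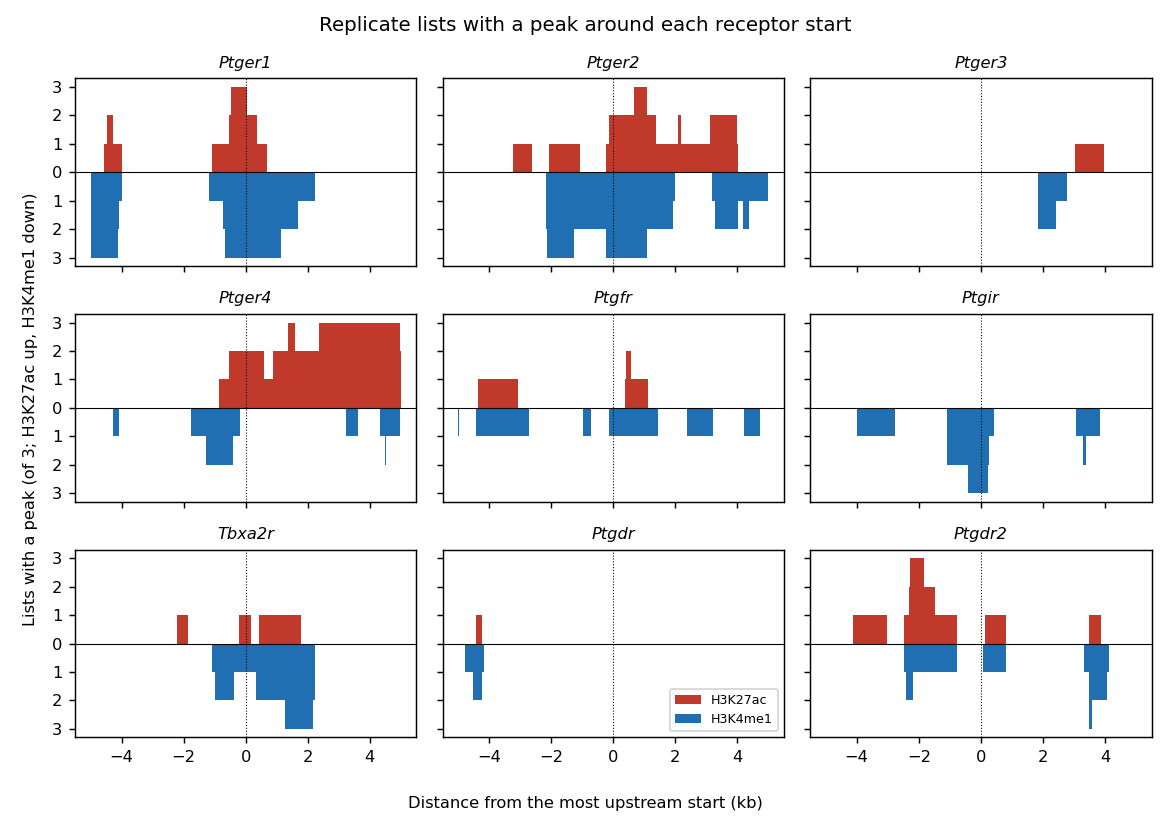
Number of the 3 replicate lists with a peak at each position within 5 kb of the most upstream start of each receptor gene, H3K27ac upward (red) and H3K4me1 downward (blue), in the direction of transcription. At Ptger4 H3K27ac extends downstream of the start, with H3K4me1 before it and again beyond 3220 bp, and at Ptgir only H3K4me1 covers the start.

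Ptgir encodes IP, the Gs-coupled receptor for prostacyclin, and lies at chr7:16906490-16910905 on the plus strand. In the replicate lists it was the member with 1 mark alone. H3K4me1 peaks lay across the start in all 3 replicates, at 12.7, 12.6 and 12.8 times the mean coverage. In each of these lists this was the highest promoter peak of the 9 genes by coverage. By fold enrichment over the local background it was the highest in replicates 1 and 2, at 1.98 in both. In replicate 3 its fold enrichment was 1.88, below Ptger4 (2.06), Ptger2 (1.99) and Ptger1 (1.94). No H3K27ac list held a promoter peak, the pooled list included, and the nearest H3K27ac peaks were 14066, 14381 and 5742 bp away in replicates 1, 2 and 3. The pattern of H3K4me1 in all 3 lists with H3K27ac in none was found at 112 genes, or 0.513%. The local background at the H3K4me1 peaks was 2.05 to 2.31 times its lowest value, and its part was not tested. The gene body held no H3K27ac in any replicate, and H3K4me1 over 16.6%, 13.3% and 9.08% of it. Without any peak under 1.3 in −log10 p-value, H3K4me1 remained in 2 of 3 lists.

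The Ptgir promoter is shown for this single-mark pattern. The 250 bases are chr7:16906240-16906489 (GRCm38.p6, plus strand), with the 5 CpG in capitals.
Ptgir: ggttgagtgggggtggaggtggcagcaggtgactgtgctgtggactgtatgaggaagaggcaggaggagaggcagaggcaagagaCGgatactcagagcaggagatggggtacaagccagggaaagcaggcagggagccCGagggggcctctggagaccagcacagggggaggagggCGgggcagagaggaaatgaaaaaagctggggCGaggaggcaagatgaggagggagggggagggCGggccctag

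Tbxa2r encodes TP, the thromboxane receptor, which contracts vascular and visceral smooth muscle, and lies at chr10:81328731-81335172 on the plus strand. H3K27ac was absent from the promoter in replicate 1 and stood at 9.07 and 12.7 times the mean coverage in replicates 2 and 3. Those 2 peaks, at 443 to 1787 bp and -223 to 159 bp, shared no base. H3K4me1 reached 10.9 and 10.1 times the mean coverage in replicates 1 and 2, and its nearest peak in replicate 3 began 1272 bp downstream. In at least 2 of 3 replicates H3K4me1 covered 1296 bp of the promoter and H3K27ac covered 0 bp. The call of both marks at Tbxa2r therefore rested on H3K27ac peaks at separate places.

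Ptgfr encodes FP, the receptor for prostaglandin F2α and a classical contractile receptor of the reproductive tract, and lies at chr3:151796502-151837630 on the minus strand. Replicate 1 of neither mark held a promoter peak. H3K27ac stood at 9.87 and 6.34 times the mean coverage in replicates 2 and 3, and H3K4me1 at 9.34 and 7.49 times. In at least 2 of 3 replicates H3K27ac covered 128 bp of its promoter and H3K4me1 covered none. In the replicate lists, no promoter peak of Ptgfr reached a −log10 p-value of 1.3. The same pattern over the 6 lists was found at 27 genes, or 0.124%.

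Ptgdr2 encodes a prostaglandin D2 receptor best known for drawing eosinophils and Th2 lymphocytes, and lies at chr19:10937160-10942511 on the plus strand. Among the replicate lists it had promoter peaks only in replicate 3 of each mark, up to 6.89 times the mean coverage for H3K27ac and 8.78 times for H3K4me1. The pooled H3K27ac list had 2, at 6.81 and 6.80 times, and the pooled H3K4me1 list had 0. In replicates 1 and 2 the nearest H3K27ac peaks ended 1490 and 1848 bp upstream. With a promoter of 3 kb on either side, H3K27ac was therefore counted in 3 of 3 lists and H3K4me1 in 2.

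Ptger3 encodes EP3, the Gi-coupled receptor for prostaglandin E2, and lies at chr3:157566892-157645888 on the plus strand. No replicate list had a peak at its promoter, and the pooled H3K4me1 list had 1, from 589 to 1199 bp. The nearest H3K4me1 peaks began 1807, 1850 and 6806 bp downstream of the start, and the nearest H3K27ac peaks were 5165, 3046 and 11470 bp from it. H3K4me1 did recur further along the locus. Near the end of the gene, peaks of all 3 replicates lay between 73096 and 74370 bp from the start, at 5.51, 5.59 and 5.82 times the mean coverage. Beyond the gene, peaks of all 3 lay between 93083 and 95962 bp, reaching 7.01, 7.11 and 7.62 times. H3K27ac had peaks there in replicates 2 and 3, at 4.89 and 5.39 times. In the gene body H3K27ac peaks covered 4.01%, 2.24% and 2.27% and H3K4me1 peaks 5.01%, 1.96% and 1.95%, so that the marks overlapped. With a promoter of 3 kb on either side, H3K4me1 was counted in 2 of 3 lists and H3K27ac in 0.

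The Ptger3 promoter is shown because it is the richest in CpG of the 9 and had no replicate peak. The 250 bases before the RefSeq start are chr3:157566626-157566875 (GRCm38.p6, plus strand), with the 21 CpG in capitals.
Ptger3: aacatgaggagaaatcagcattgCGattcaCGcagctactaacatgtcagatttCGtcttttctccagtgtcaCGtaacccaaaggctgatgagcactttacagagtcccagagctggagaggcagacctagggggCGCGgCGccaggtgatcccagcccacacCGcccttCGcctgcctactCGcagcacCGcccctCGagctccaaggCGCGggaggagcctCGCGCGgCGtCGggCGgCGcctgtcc

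Ptgdr encodes DP1, the Gs-coupled receptor for prostaglandin D2, and lies at chr14:44851235-44859375 on the minus strand. It was unmarked at the promoter in all 8 lists, the pooled lists included, and its gene body held no peak in any of the 6 replicate lists, as in 24.6% of genes. The nearest H3K27ac peaks were 23451, 109630 and 4217 bp from the start, and the nearest H3K4me1 peaks 4192, 6550 and 4216 bp. Ptger2, its neighbor on chromosome 14, was marked in every list.

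Promoter CpG content and marks were set side by side over the 500 bp on either side of the start. The observed over expected CpG ratio, which is 1 where CpG is as frequent as its bases allow, was 0.854 at Ptger3 and 0.695 at Ptger4. At the other 7 members it ran from 0.162 (Ptgdr2) to 0.497 (Ptgfr), under the median of 0.561 over all genes. Among 10185 genes at 0.6 or above, 7.84% were without a promoter peak in any replicate list, as Ptger3 was. Among 11668 genes below 0.6, 12.3% had both marks in all 6 lists, as Ptger1 (0.189) and Ptger2 (0.220) did, and 54.7% had none, as Ptgdr (0.439) did. In that class 0.660% had the H3K4me1-only pattern of Ptgir (0.228). The value of 0.6 was chosen after the data were seen. These are descriptions of single genes within each class, with no test.

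**Figure D3:**
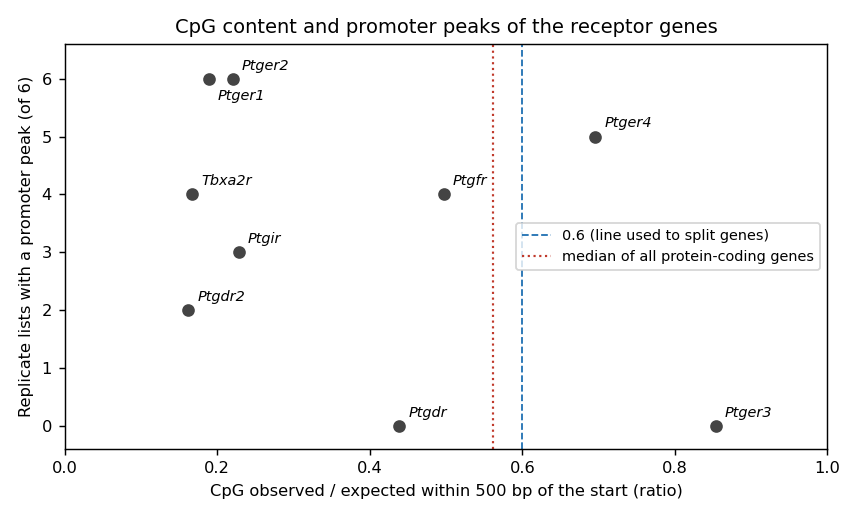
Observed over expected CpG ratio within 500 bp of the start (x axis) against the number of the 6 replicate lists with a promoter peak (y axis), 1 point per receptor gene. The dashed line is at 0.6 and the dotted line at the median of all protein-coding genes, 0.561; Ptger3 has the highest ratio and 0 lists, and Ptger1 and Ptger2 have low ratios and 6 lists.

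Short motifs were searched on both strands of the 250 bases before each start. The GC box, GGGCGG, occurred 4 times at Ptger4, 3 times at Ptger3, 2 times at Ptgir, and once each at Ptgfr and Ptgdr2, and it was found in 32.7% of 32851 RefSeq promoters. CCAAT occurred once each at Ptger2, Ptger4, Ptgdr2 and 1 of the 2 RefSeq starts of Tbxa2r, and in 33.9% of promoters. The AP-1 motif TGANTCA, the cyclic AMP response element TGACGTCA, the TATA box TATAAA and the SRF CArG box matched at none of the 8 members with a sequence. They matched in 6.75%, 1.55%, 12.4% and 1.47% of promoters. The GC box holds a CpG, so its matches overlap the capitals printed above.

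The extent of each mark over the whole locus was taken as the share of the window, the gene body with 50 kb on each side, that lay under peaks. Ptger4 was the most widely marked, with 16.1%, 18.7% and 15.7% in H3K27ac replicates 1, 2 and 3, and 15.2%, 15.1% and 17.2% in those of H3K4me1. Its means were above those of 93.1% of genes for H3K27ac and 91.4% for H3K4me1. Ptgdr was the least, with 2.68%, 0% and 1.26% for H3K27ac and 2.36%, 0.887% and 1.98% for H3K4me1. The median gene had 4.97% and 4.45%.

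Between these ends the order of the means was Tbxa2r, Ptgdr2, Ptger2, Ptger1, Ptgir, Ptgfr and Ptger3 for H3K27ac, from 11.9% to 4.95%, and each member's range overlapped that of its neighbor in this order. For H3K4me1 the order was the same but for Ptgir before Ptger1, from 11.1% to 5.76%, again with each range overlapping the next. For H3K4me1 the range of Ptger4 lay above that of Tbxa2r, and that of Ptgdr below that of Ptger3, with no overlap. For H3K27ac the range of Ptger4 overlapped that of Tbxa2r, and the range of Ptgdr overlapped that of Ptgfr, which fell to 1.95% in replicate 2.

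**Figure D4:**
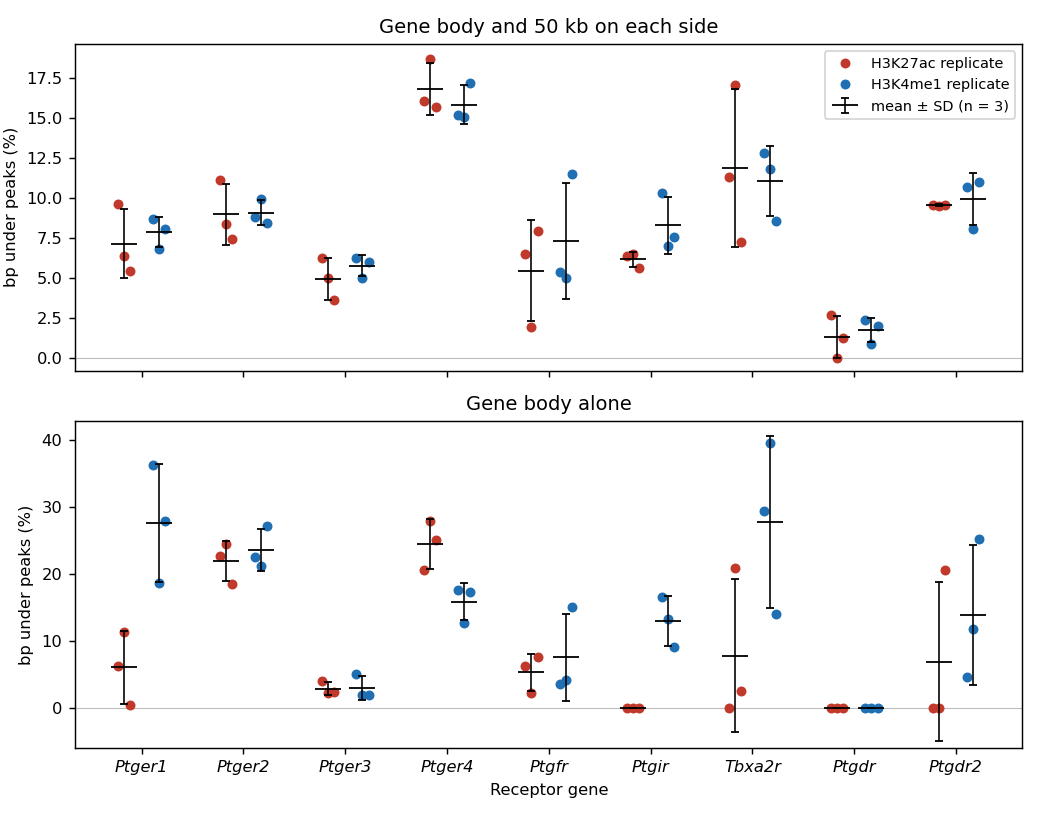
Share of bp under peaks in the window of each receptor gene (top) and in its gene body alone (bottom), in percent, with 1 point per replicate list (red, H3K27ac; blue, H3K4me1) and the mean ± SD of 3. In the window the marks overlap for every gene but Ptgir, and in the gene body they separate for Ptger1, Ptger4 and Ptgir.

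The 2 marks were then compared in each window by a two-sided exact permutation test, in which the 6 lists can be assigned in 20 ways and the smallest p is 0.1. The p-values were adjusted by the Benjamini-Hochberg method over all 21853 genes, for which the smallest adjusted value was 0.317, so no gene could pass 0.05. The libraries are not stated to come from separate animals or cultures, and the p-values measure only the spread between them. Ptgir had 6.38%, 6.48% and 5.62% under H3K27ac and 10.3%, 7.02% and 7.55% under H3K4me1. Every H3K4me1 list was the higher, as at 13.2% of all genes, with a difference (H3K27ac minus H3K4me1) of -2.13 percentage points (exact permutation p = 0.1, adjusted p = 0.317). This separation was lost with a flank of 20 kb, although the difference was -4.71 points (exact permutation p = 0.2), with one of 100 kb (-1.42 points, exact permutation p = 0.2), with a filter on peak p-values (-0.744 points, exact permutation p = 0.7) and after division by the genome share of each list (a difference of -0.121 in that ratio, exact permutation p = 0.6). At the other 8 members the lists of the marks overlapped, with differences from -1.83 points at Ptgfr to 0.997 at Ptger4 and exact permutation p-values from 0.5 to 1. No member had every H3K27ac list above every H3K4me1 list, as 18.3% of genes did. With the filter on peak p-values 4 members did, as did 29.1% of genes. They were Ptger3 (1.92 points), Ptger4 (5.11), Tbxa2r (4.74) and Ptgdr2 (3.12), each with an exact permutation p = 0.1. Among these other 8 members, every H3K4me1 list was the higher at Ptger3 with a filter on peak coverage (-2.40 points), as at 4687 of the 21853 genes. With a flank of 20 kb this held at Ptger1 (-5.97) and Ptger3 (-1.53), as at 2598 genes. Without H3K4me1 replicate 2 it held at Ptgdr2 (-1.31), as at 3450 genes. Each of these had an exact permutation p = 0.1.

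The IgG library used for a call differed between lists, so the difference was also taken between lists called against the same one. This left H3K27ac replicate 2 against H3K4me1 replicates 1 and 2 for IgG replicate 2, and replicate 3 of each mark for IgG replicate 3, so IgG and treatment libraries changed together and cannot be told apart. At Ptgir it was -2.18 points against IgG replicate 2 and -1.93 against IgG replicate 3. At Ptger4 it was 3.57 and -1.51, and at Tbxa2r 4.78 and -1.31, so that the direction differed between these sets of lists. At Ptgdr2 it was 0.110 and -1.44. At Ptger1, Ptger2, Ptger3, Ptgfr and Ptgdr H3K4me1 was the wider in both.

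In the gene body alone, 3 members had lists that did not overlap between marks. H3K4me1 was the wider at Ptger1, with 36.2%, 18.5% and 27.9% against 6.25%, 11.3% and 0.428% (difference -21.6 points, exact permutation p = 0.1). It was also the wider at Ptgir (-13.0 points, exact permutation p = 0.1), and 10.7% of all genes had this order. H3K27ac was the wider at Ptger4 alone (8.64 points, exact permutation p = 0.1). At Tbxa2r the gene body had H3K4me1 over 29.4%, 39.6% and 14.1% and H3K27ac over 0%, 20.9% and 2.48%, a difference of -19.9 points (exact permutation p = 0.2), opposite in sign to the 0.818 points of the whole window. An H3K4me1 peak lay in the gene body in all 3 replicates at 8 members and at 45.7% of all genes, and an H3K27ac peak at 5 members and 53.6% of all genes.

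Together the 9 windows held 100, 75 and 80 H3K27ac peaks in replicates 1, 2 and 3, and 106, 87 and 105 H3K4me1 peaks. Of these, 3 to 8 per list were at a receptor promoter, 13 to 25 were intragenic and 55 to 80 were flanking. Between 16 and 20 of the flanking peaks of a list lay at the promoter of another gene. Other genes in the windows whose promoters had peaks in all 3 replicates of both marks included Zranb2 near Ptger3, Ttc33 near Ptger4, Dact3 near Ptgir, Cactin, Pip5k1c and Tjp3 near Tbxa2r, and Prpf19 near Ptgdr2. The pooled H3K27ac peak of highest fold enrichment in a window lay at the promoter of another gene for 7 of the 9 members, as for 55.6% of all genes with a pooled peak in the window, and at the receptor promoter for Ptger2 alone, beside 32.5% of genes at their own promoter. The pooled H3K4me1 peak of highest fold enrichment lay at the receptor promoter for Ptger1 alone, beside 17.6% of genes. For Ptger3 the peaks of both marks were at Zranb2, that of H3K27ac from -33160 to -28211 bp.

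**Figure D5:**
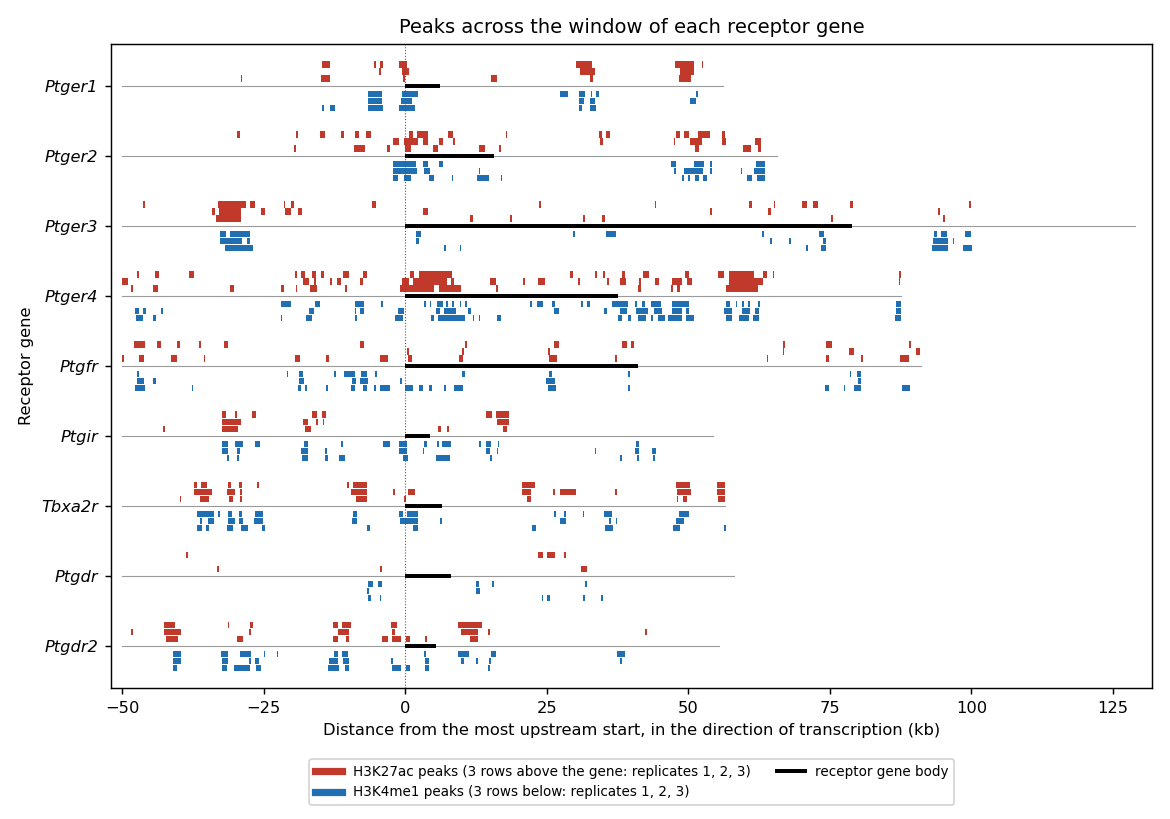
Peaks of each replicate list across the window of each receptor gene, by distance from the most upstream start in kb along the direction of transcription. The rows above each gene line are H3K27ac replicates 1 to 3 from the top and those below are H3K4me1; the thick black bar is the gene body. The Ptger4 row is filled most densely and the Ptgdr row least.

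Both marks together outside promoters are the usual sign of a candidate enhancer. A distal region was a stretch outside all promoters under H3K27ac peaks in at least 2 of 3 replicates that met, by 1 bp or more, sequence under H3K4me1 peaks in at least 2 of 3. There were 22 such regions in the windows of 7 members, and 56.8% of all genes had at least 1. Ptger4 had 7, Ptgfr 4, Ptgdr2 4, Ptger2 3, Tbxa2r 2, Ptger1 1 and Ptgir 1, and Ptger3 and Ptgdr had none. The H3K27ac stretches were 88 to 1324 bp long, with a median of 537.5 bp, and the part that also had H3K4me1 was 88 to 1151 bp, with a median of 345 bp. H3K4me1 covered at least 50% of 19 of them and less of 3, which lay 16156 bp upstream of Ptger4, 1901 bp upstream of Ptgdr2 and within Ptgfr. Of the 22, 4 were inside a receptor gene, 9 inside another protein-coding gene and 9 in no protein-coding gene. The receptor start was the nearest coding start for 10.

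The other 12 regions lay nearer to the start of another gene. Of the 7 in the Ptger4 window, 5 were in introns of Ttc33 and 1 in an intron of Prkaa1. Both of the Tbxa2r window were in introns of Pip5k1c. The 1 of the Ptgir window was nearest to the start of Gng8, and 3 of the 4 in the Ptgdr2 window to that of Zp1. Among the 10 nearest to a receptor start, the 1 of the Ptger1 window was at an exon of Gipc1, 4386 bp upstream of the start. In the Ptgfr window 3 of the 4 lay in introns of Ptgfr itself, at 10095, 25451 and 26584 bp. Peaks of all 6 lists met 6 of the 22 regions, 2 of them in Pip5k1c and the others near Ptger2, Ptger4 and Ptgdr2.

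The number of these regions depended on the call. When peaks had to reach 1.3 in −log10 p-value the count was 0. It was 7 when all 3 replicates of each mark had to cover the sequence, 34 in the pooled lists, and 13 without H3K27ac replicate 2 or without H3K4me1 replicate 2.

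Peaks of all 6 lists met 4 regions that lay in no protein-coding gene. At the one upstream of Ptger4 H3K27ac stood at 4.03, 5.51 and 5.34 times the mean coverage, and the marks shared 109 of 730 bp, away from its center. The central 300 bases of the other 3 are shown, since both marks covered them whole in at least 2 of 3 replicates. Capitals mark matches to the motifs above. The Ptger2 region, 51765 bp downstream of the start, is chr14:45039811-45040110 (GRCm38.p6, plus strand). It stood at 4.56, 6.31 and 5.48 times the mean coverage for H3K27ac and 6.40, 6.80 and 8.27 times for H3K4me1, and holds CCAAT, as 34.3% of 28391 regions defined the same way across the genome did in their central 300 bases.
Ptger2 downstream region: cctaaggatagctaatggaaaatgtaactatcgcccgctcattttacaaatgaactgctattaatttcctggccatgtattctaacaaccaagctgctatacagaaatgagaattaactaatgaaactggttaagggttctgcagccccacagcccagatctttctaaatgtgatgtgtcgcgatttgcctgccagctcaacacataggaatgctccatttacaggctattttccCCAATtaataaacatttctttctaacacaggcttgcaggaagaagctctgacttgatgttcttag

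The Ptgdr2 region, centered at -12271 bp from the start and nearer to Zp1, is chr19:10924740-10925039 (GRCm38.p6, plus strand). It stood at 8.44, 10.6 and 5.89 times the mean coverage for H3K27ac and 10.1, 10.6 and 8.50 times for H3K4me1. The match is a GC box within a run of C, and 3.33% of regions held one.
Ptgdr2 first upstream region: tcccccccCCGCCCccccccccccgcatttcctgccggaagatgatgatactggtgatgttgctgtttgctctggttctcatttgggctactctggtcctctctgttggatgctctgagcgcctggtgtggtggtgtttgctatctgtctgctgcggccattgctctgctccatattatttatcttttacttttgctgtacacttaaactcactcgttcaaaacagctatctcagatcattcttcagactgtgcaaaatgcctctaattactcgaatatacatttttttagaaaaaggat

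The second Ptgdr2 region, centered at -10534 bp from the start, is chr19:10926477-10926776 (GRCm38.p6, plus strand). It stood at 9.23, 10.6 and 11.3 times the mean coverage for H3K27ac and 10.4, 11.1 and 13.4 times for H3K4me1, and holds CCAAT on the minus strand.
Ptgdr2 second upstream region: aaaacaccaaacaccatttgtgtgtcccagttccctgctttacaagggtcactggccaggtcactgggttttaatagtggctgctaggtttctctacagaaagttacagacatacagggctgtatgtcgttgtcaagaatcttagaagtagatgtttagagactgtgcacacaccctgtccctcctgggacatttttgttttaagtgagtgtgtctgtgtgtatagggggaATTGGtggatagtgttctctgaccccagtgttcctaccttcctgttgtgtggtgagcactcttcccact

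The genes that carry the receptors' signals were looked at by the same promoter rule. Of 33 G protein subunits, adenylyl cyclases, phospholipases, kinases and other partners, 28 had H3K27ac, 22 had H3K4me1 and 20 had both in at least 2 of 3 replicates, beside the 53.9%, 43.7% and 39.1% of all genes given above. Peaks in all 6 lists were found at 14, beside 24.3% of all genes. They were Gnas, the Gs subunit through which Ptger2, Ptger4 and Ptgir act, the G protein subunits Gnai2 and Gna12, the cyclases Adcy4, Adcy6, Adcy7 and Adcy9, the protein kinase A subunits Prkaca and Prkacb, the phospholipase Plcb3, the calcium channel Itpr2, Rock1, a kinase of the contractile pathway, and the regulators Arrb1 and Rgs2. Gnaq and Gna11, the subunits used by Ptger1 and Ptgfr, had H3K27ac in 3 lists and H3K4me1 in 2. Plcb2 and Adcy1 had none. Adcy8 had H3K4me1 in 3 lists and H3K27ac in 0, as Ptgir did, and Grk2 had the list pattern of Ptger4.

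Of 15 genes for prostaglandin synthesis and removal, 11 had H3K27ac, 6 had H3K4me1 and 6 had both, beside 53.9%, 43.7% and 39.1% of all genes. Pla2g4a, which frees arachidonic acid, and Hpgd, which inactivates prostaglandins, had peaks in all 6 lists, as did Ptgs2, and 24.3% of all genes had them. The synthases that supply the ligands differed in their marks. Ptgis, which makes the prostacyclin that Ptgir binds, had H3K27ac in 1 list and H3K4me1 in 0. Tbxas1, the thromboxane synthase, had H3K27ac in 3 lists and H3K4me1 in 1. Of the 2 prostaglandin D synthases, Hpgds had H3K27ac in 2 lists and H3K4me1 in 3, and Ptgds had neither in any.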

How the data were processed

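There were 3 H3K27ac, 3 H3K4me1 and 3 IgG ChIC-Seq samples, grouped by antibody from the labels. The authors' notes name alignment to GRCm38. Per the file headers, the authors called broad peaks with MACS 2.2.7.1 in paired-end mode, at p-value cutoffs of 0.05 for strong and 0.1 for weak regions, for each library and for the 3 libraries of a mark together. Treatment was scaled down to its IgG library, so that the deposited pileup is a coverage signal at IgG depth, averaged over the peak. The deposited fold enrichment is a ratio, that of pileup to local background after 1 was added to each. The deposited p-value is given as −log10, and the q-value column was not used. IgG replicate 1 was the control of H3K27ac replicate 1, IgG replicate 2 that of H3K4me1 replicates 1 and 2 and of H3K27ac replicate 2, and IgG replicate 3 that of replicate 3 of both marks.

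Pileup was divided by the mean coverage of its call, and the lowest peaks of the replicate lists stood at 4.03 to 4.94 times that mean. The shallow IgG libraries limit how finely the calls resolve significance. Peaks were joined to GENCODE mouse release 21 genes outside the mitochondrial genome by an overlap of at least 1 bp with 54361 coding starts (1 kb on either side) or with gene bodies and 50 kb flanks. Of 848801 peaks, 0 passed a chromosome end. Overlapping peaks were merged before covered bp were counted. Sequences are from RefSeq promoters, which held 8 of the 9 members, and from the GRCm38.p6 genome.

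The members and gene lists were chosen with earlier results of these data known. All 9 members are named. Neighbors are named where all 6 lists had a promoter peak (1 is not reported here), and genes of the signalling and synthesis lists where all 6 or none did. Marker lists are given by counts with examples. Other list genes were added after their values were seen. The alternatives were a p-value filter, a coverage filter, other promoter and window sizes, pooled lists and left-out replicates. The split by IgG library was added after the data were seen. Interval operations and the permutation test were tested on simulated data. Python 3.11.15, numpy 2.4.6 and pandas 2.3.3 were used.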

Additional observations from a re-analysis of the deposited data

How the results depend on the processing

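The counts of receptor promoters with H3K27ac, H3K4me1 and both marks were 5, 6 and 5. They were 3, 3 and 1 when peaks had to reach 1.3 in −log10 p-value, 3, 3 and 2 with a promoter of 250 bp, and 3, 3 and 2 with a peak required in all 3 replicates. With at least 50% of the peak inside the promoter, the count with H3K27ac was 3 and that with both marks 2. Of these stricter settings, shares of all genes were taken only for the rule of all 3 replicates. Leaving out 1 replicate gave 3 to 5 with H3K27ac, 3 to 5 with H3K4me1 and 2 to 5 with both marks, as both remaining lists had to hold a peak. The 22 distal regions became 0 with the p-value filter, 7 when all 3 replicates had to cover them, 34 in the pooled lists, 46 with a flank of 100 kb, and 13 to 18 when 1 replicate was left out. The mean of 85 H3K27ac peaks near the receptors per list became 22.3 with the p-value filter, 63.7 with peaks of at least 5 times the mean coverage, 51.7 with a flank of 20 kb and 144 with one of 100 kb. The mean of 99.3 H3K4me1 peaks became 23.0 with the p-value filter, 59.7 with a flank of 20 kb and 162 with one of 100 kb.

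The difference in window coverage (H3K27ac minus H3K4me1) kept its sign under all 15 alternatives at Ptgir alone, from -13.0 to -0.744 percentage points, and -0.121 as a ratio after division by genome share. Among the 15, the block by replicate number changes only the p-value, so the sign could not turn there. The separation of its lists was lost, with exact permutation p-values of 0.7 with the p-value filter, 0.6 after division by genome share and 0.2 with flanks of 20 kb or 100 kb. With every H3K27ac list the higher, 4 receptors separated under the p-value filter against 0 without it (each exact permutation p = 0.1). Over all genes these shares were 29.1% and 18.3%. After division by genome share Ptger2 separated in the same direction (exact permutation p = 0.1), as did 5713 of the 21853 genes. With the p-value filter the difference turned to 1.92 at Ptger3, 0.208 at Ptgfr and 3.12 at Ptgdr2, and with the filter on coverage to -1.20 at Ptger4. With a flank of 20 kb it was 1.54 at Ptger2, -1.39 at Ptger4 and 3.50 at Ptgdr2, and with 100 kb 0.738 at Ptger1 and 0.423 at Ptgdr2. In the gene body it was -19.9 at Tbxa2r. Divided by the genome share of each list it was 0.100 at Ptger1, 0.289 at Ptger2, 0.0219 at Ptger3 and 0.321 at Ptgdr2. Between lists called against IgG replicate 2 it was 0.110 at Ptgdr2, and against IgG replicate 3 -1.51 at Ptger4 and -1.31 at Tbxa2r. With 1 replicate left out it ran from -1.93 to 0.135 at Ptger1, -1.16 to 0.670 at Ptger2, -3.07 to 0.265 at Ptgfr, -1.79 to 3.13 at Tbxa2r, -1.11 to 0.225 at Ptgdr and -1.31 to 0.168 at Ptgdr2. The causes were not tested.

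Between the marks, deviations of lists with the same replicate number correlated at -0.0881, 0.319 and 0.468, so the numbers were not taken to pair the samples. H3K27ac replicate 2 correlated at 0.354 with H3K4me1 replicate 1, called against the same IgG library, and at -0.496 with replicate 3. H3K27ac replicate 3 correlated at -0.245 and -0.408 with H3K4me1 replicates 1 and 2, called against another. The permutation test takes the lists as exchangeable, and the part of the shared IgG library was not tested. With the replicate number as a block, the exact sign-flip test has a smallest p of 0.25, which Ptgir reached (-2.13 points, exact permutation p = 0.25). The peaks are weak at this IgG depth, and a missing peak does not show that a mark was absent.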
